A study of Mus musculus with 8 samples.

Results

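Plagl1 and 4 of its neighbours on mouse chromosome 10, Phactr2, Fuca2, Ltv1 and Pex3, were followed allele by allele in single blastocysts. The 5 genes were taken by their symbols, because Plagl1 is a known imprinted gene and the others lie beside it, and all 5 were found among the 22810 genes in the counts. Each sample was 1 embryo collected on embryonic day 3.5 after natural mating, without culture, and sequenced by SMART-Seq2, which amplifies full-length cDNA from little polyA RNA. The forward cross (mother C57BL/6, called B6, and father Mus musculus castaneus, called cast) gave 3 embryos, numbered 1, 2 and 3. The reverse cross (cast mother, B6 father) gave 5 embryos, numbered 1, 2, 3, 5 and 7. The labels give cross, stage and embryo number, and name no mutation and no treatment. How many mothers the embryos of a cross came from is not given in the sources used here. The p-values therefore measure the spread between these embryos, or between their allele libraries, and the embryos may include littermates. Only reads that cover a SNP between both strains were counted, so that each embryo has a maternal and a paternal count for every gene.

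Imprinted genes are read mainly from the allele of 1 parent. At many of them a region methylated in the oocyte, a maternal germline differentially methylated region, silences the maternal copy, and the paternal copy is transcribed. Such a region lies at the promoter of Plagl1, also known as Zac1, which encodes a zinc finger transcription factor linked to growth arrest and to other imprinted genes, and the noncoding RNA Hymai starts at the same place. Phactr2 binds actin and protein phosphatase 1, Fuca2 is a fucosidase that removes fucose from glycans, Ltv1 helps the small ribosomal subunit to mature, and Pex3 sits in the peroxisome membrane and is needed to build it. In reciprocal crosses a parental bias stays with the parent, whereas a strain bias changes parent when the cross is turned round.

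The SNP-spanning reads summed to between 1060063 and 1632695 per embryo, and 57.4% to 58.3% of them were B6 reads. Among genes with 20 or more reads, the median B6 share was 56.3% in forward and 56.7% in reverse embryos, and the members' shares are read against this level. All 6 trophectoderm markers (among them Cdx2 and Krt8) and all 6 inner cell mass markers (among them Pou5f1 and Nanog) were detected, as the label of a blastocyst requires. Reverse embryo 1 stood apart, with a summed trophectoderm marker level of 903 CPM (CPM, counts scaled to a common library depth, for markers without TMM factors) against 3659 to 3929 in the other reverse embryos and 3928 to 4976 in the forward embryos. Fewer cells of a type and less RNA per cell cannot be told apart in such whole-embryo samples. All 5 leukocyte markers were detected as well, with a summed level of 35.6 to 676 CPM in the forward and 1.33 to 4.50 in the reverse embryos, and 1203 of these reads were maternal and 14 paternal. The 4 oviduct and uterine epithelium markers reached 70.5 to 84.2 in the forward and at most 60.1 in the reverse embryos. Of the cumulus cell list 2 of 5 markers were in the counts, with at most 4.29 CPM, and of the red blood cell list 1 of 4, with at most 0.943.

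Plagl1 (ENSMUSG00000019817.18, chr10:13060504-13131694 of mm10, plus strand) is shown with its promoter because the imprint of the locus lies there. The first line is the part of the RefSeq promoter window (GRCm38.p6) that precedes the first annotated exon within that window, chr10:13090582-13090690 on the plus strand. The GENCODE span of Plagl1 given above begins upstream of it. CpG dinucleotides, the sites of methylation, are in capitals. The second line is chr10:13090730-13090759 on the same strand, with the match to TGCCGC in capitals, which reads GCGGCA here because the match is on the other strand. TGCCGC is the hexamer bound, when methylated, by ZFP57, a protein that keeps imprints in the early embryo.
Plagl1 promoter: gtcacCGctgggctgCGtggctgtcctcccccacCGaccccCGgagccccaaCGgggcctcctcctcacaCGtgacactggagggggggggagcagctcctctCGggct
Plagl1 motif: ctggcgtgttgcGCGGCAaagcccacggca
The promoter window of 300 bases ran from 250 before to 50 after a transcription start. It held 26 CpG in Plagl1, 28 in Pex3, 17 in Phactr2, 17 in Ltv1 and 5 in Fuca2, against a median of 7 over 32851 mouse promoters. For Plagl1, Ltv1 and Pex3 this start is the outer RefSeq start of the gene. The windows of Phactr2 (chr10:13324240-13324539) and Fuca2 (chr10:13500778-13501077) lie inside the gene, whose outer RefSeq start is 13474525 and 13500570. TGCCGC was found, on either strand, in the windows of Plagl1 and Ltv1 and in 11.6% of all promoters, so the match is a description and not a mapped binding site.

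Plagl1 was read only from the paternal allele wherever it was read, but it was read in 4 of the 8 blastocysts. Forward embryos 1, 2 and 3 had 0, 2 and 0 paternal reads, whereas reverse embryos 1, 2, 3, 5 and 7 had 0, 14, 22, 11 and 0. The maternal reads were 0 in all 8 embryos. Nearly all reads thus came from 3 embryos of 1 cross, in which the paternal allele is B6, and the groups overlap at 0. Over all embryos, 0 of 49 reads were maternal, which allows a maternal share of up to 6.12% (3 reads, a limit for counting error only, since amplified reads without molecular identifiers are not independent molecules), so that the paternal allele was at least 16.3-fold higher. The reverse cross alone gave 0 of 47 maternal reads and a limit of 6.38%, whereas the 2 reads of the forward cross set no limit of use.

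The parental contrast was tested with edgeR's quasi-likelihood test, which also held a term for strain, with Benjamini-Hochberg adjustment over the 12565 autosomal genes tested, and called at an adjusted p of at most 0.1. This main fit had no term for the embryo, so the maternal and paternal libraries of 1 embryo counted as separate samples. By this test 1.42% of all genes were called, 1.11% with more paternal and 0.318% with more maternal reads. Plagl1 was not called by edgeR (adjusted p = 0.268), although its reads were paternal in 4 of 4 embryos that had any. Its unadjusted p was under 0.05, as was that of 7.32% of all genes. Plagl1 reached the 10 reads needed for testing only in the paternal B6 libraries of reverse embryos 2, 3 and 5 (14, 22 and 11 reads). The gene was thus admitted by the side on which it is high, and no conclusion is drawn from its unadjusted p. The fitted log2 fold change of Plagl1, 4.85 (SE 1.56), depends on the count that edgeR adds to libraries at 0 and is no bound. With every gene of at least 1 read kept, Plagl1 was called paternal (adjusted p = 0.0268). The strain contrast of the same fit gave a log2 fold change, cast over B6, of -2.59 (95% interval -5.83 to 0.65, adjusted p = 0.343), so a strain difference could not be shown at this depth.

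Hymai (chr10:13090845-13095900 in RefSeq) overlaps the start of Plagl1 and had 4 paternal reads in reverse embryo 3, the embryo with the most Plagl1 reads, and 0 reads in the other 7. It was too low to test. Gm27741, a small RNA gene on the opposite strand within Plagl1, had no row in the counts.

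**Figure D1:**
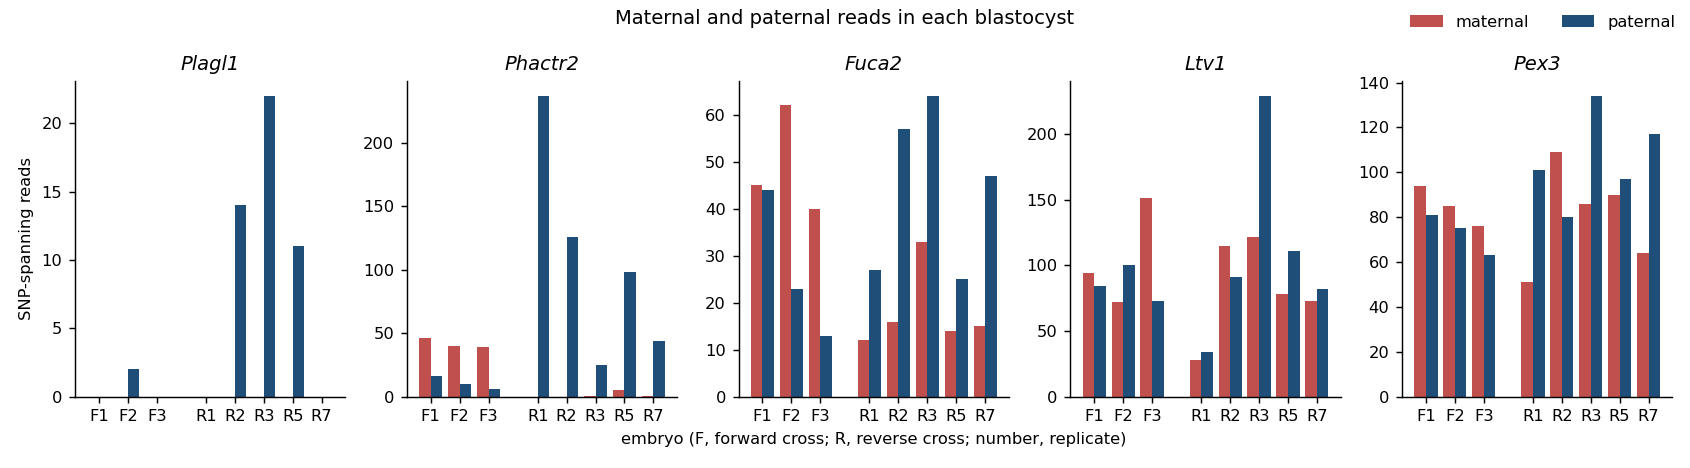
SNP-spanning reads of each gene (vertical axes, separate scale per gene) in each embryo, maternal reads in red and paternal reads in blue; F marks forward and R reverse embryos with their replicate number. Plagl1 has paternal bars in 4 embryos and no maternal bar, whereas Phactr2 is mainly maternal in the 3 forward and almost wholly paternal in the 5 reverse embryos.

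Phactr2 (ENSMUSG00000062866.16, chr10:13207717-13474412, minus strand) was read mainly from the B6 allele in every embryo, whichever parent gave it. The forward embryos 1, 2 and 3 had 46, 40 and 39 maternal reads and 16, 10 and 6 paternal reads. The reverse embryos 1, 2, 3, 5 and 7 had 0, 0, 1, 5 and 1 maternal reads and 237, 126, 25, 98 and 44 paternal reads. The majority therefore lay with the mother in 3 of 3 forward embryos and with the father in 5 of 5 reverse embryos.

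The strain contrast of Phactr2 was -3.49 on the log2 scale, cast over B6 (SE 0.50, 95% interval -4.53 to -2.44), an 11.2-fold higher B6 allele, and was called (edgeR, adjusted p = 3.03e-05). In all, 15.5% of genes were called in this contrast and 11.0% toward B6, and 4.94% of the genes tested had a more negative value, so that a call toward B6 is common among these genes and its size less so. Reads from a mapping bias toward the B6 reference cannot be told apart from a strain difference in level. The contrast stayed called in all 15 alternatives run, and was -3.71 without forward embryo 1 and -3.09 without reverse embryo 1.

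Beside the strain difference, the B6 share of Phactr2 was higher when B6 was the father. Forward embryos 1, 2 and 3 had B6 shares of 74.2%, 80% and 86.7%. Reverse embryos 1, 2, 3, 5 and 7 had 100%, 100%, 96.2%, 95.1% and 97.8%. The crosses did not overlap, with means of 80.3% ± 6.24 (SD, n = 3) and 97.8% ± 2.20 (SD, n = 5). The difference of 17.5 percentage points had p = 0.0357 in a two-sided exact permutation test over embryos, which is the smallest that 3 against 5 embryos allow. This test was chosen after the data were seen, was made for 4 of the 5 genes (Plagl1 had too few reads) and is not adjusted for that number. Of the 8400 genes with at least 5 reads in every embryo, 5.04% had a higher B6 share in every reverse than in every forward embryo.

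In the edgeR fit across all genes the parental contrast of Phactr2 was 1.71 on the log2 scale, paternal over maternal (SE 0.48, 95% interval 0.71 to 2.71), with adjusted p = 0.116, just outside the threshold. It passed with DESeq2 (1.82, adjusted p = 0.0216), with every gene of at least 1 read kept (adjusted p = 0.00356) and with a term for each embryo, which uses the pairing of both alleles of 1 embryo (1.98, adjusted p = 0.00674). Without reverse embryo 3, which had the fewest Phactr2 reads, it also passed (1.85, adjusted p = 0.0703), and over all 15 alternatives the adjusted p ran from 0.00356 to 0.480, with 4 calls. Without reverse embryo 1, which had the most Phactr2 reads, the contrast was 1.30 (adjusted p = 0.228).

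The level of each Phactr2 allele was also compared between the crosses. The cast allele stood at 22.6, 19.8 and 11.1 CPM (in its own library, after TMM scaling) as the paternal allele of forward embryos 1, 2 and 3. As the maternal allele of reverse embryos 1, 2, 3, 5 and 7 it stood at 0, 0, 1.83, 8.64 and 2.20, below every forward embryo. Of all genes tested, 5.05% had a cast allele that was higher in every forward than in every reverse embryo. The B6 allele stood at 50.6, 65.4 and 58.2 as the maternal allele of forward embryos 1, 2 and 3 (mean 58.1). As the paternal allele of reverse embryos 1, 2, 3, 5 and 7 it stood at 253, 144, 37.1, 134 and 77.5 (mean 129). The crosses overlapped through reverse embryo 3 only, and the other reverse embryos lay above every forward embryo. Parent and cross cannot be told apart for the level of a single allele.

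**Figure D2:**
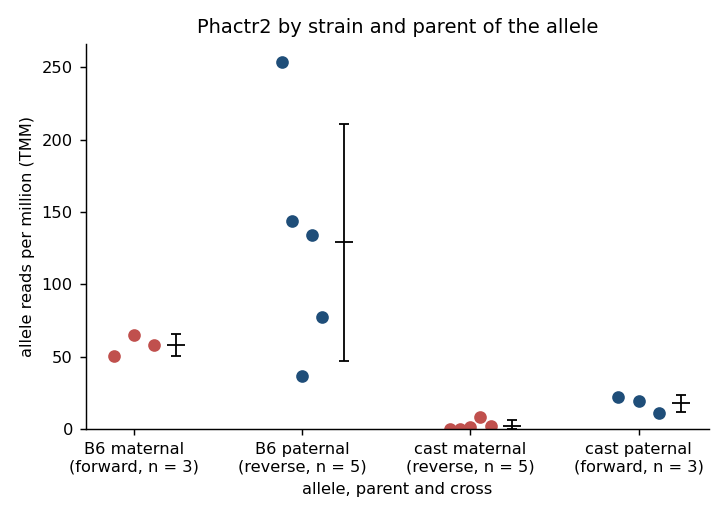
Phactr2 level in CPM in each allele library after TMM scaling (vertical axis), by strain and parent of the allele; points are embryos (red maternal, blue paternal), and the black marks are the mean and SD, with the lower bar stopped at 0. The maternal cast alleles lie between 0 and 8.64, below the paternal cast alleles at 11.1 to 22.6. Maternal and paternal B6 alleles overlap through reverse embryo 3 only.

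Markers of leukocytes and of oviduct and uterine epithelium were higher in the forward embryos, with more maternal than paternal reads there, and are given here for that reason. The summed level of the leukocyte markers was 676, 35.6 and 38.4 CPM in forward embryos 1, 2 and 3, with 1103, 40 and 42 maternal and 0, 1 and 7 paternal reads. The oviduct and uterine epithelium markers stood at 80.2, 84.2 and 70.5 CPM in the same embryos, with 99, 75 and 69 maternal and 32, 22 and 21 paternal reads. In reverse embryos 1, 2, 3, 5 and 7 the maternal reads of this list were 29, 12, 37, 5 and 11. The paternal reads were 10, 36, 53, 19 and 14, so B6 reads were the majority in every embryo except reverse embryo 1. Phactr2 had 46, 40 and 39 maternal reads in the forward embryos, and the part of either marker list in its result was not tested. Without forward embryo 1, which had the lowest B6 share of Phactr2, the difference between the crosses was 14.5 percentage points.

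Fuca2 (ENSMUSG00000019810.15, chr10:13499540-13519035, plus strand) was read more from B6 than from cast in all 8 embryos, but less far from the median gene than Phactr2. The forward embryos 1, 2 and 3 had 45, 62 and 40 maternal and 44, 23 and 13 paternal reads. The reverse embryos 1, 2, 3, 5 and 7 had 12, 16, 33, 14 and 15 maternal and 27, 57, 64, 25 and 47 paternal reads. Its B6 share averaged 66.3% ± 13.7 (SD, n = 3) over forward embryos and 70.6% ± 6.09 (SD, n = 5) over reverse embryos, which overlapped (two-sided exact permutation test, p = 0.571). The strain contrast was -0.80 (SE 0.35, 95% interval -1.54 to -0.073) with adjusted p = 0.161, and was called with the embryo as a model term (adjusted p = 0.0453), with 1 library size per embryo (-1.13, adjusted p = 0.0255) and without reverse embryo 1 (adjusted p = 0.0876). With 1 library size per embryo both alleles are scaled alike, so the general excess of B6 reads stays in the contrast. Ltv1 (-0.34) and Pex3 (-0.33) also moved toward B6 in that setting.

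No parental difference of Fuca2 was detected. The parental contrast was 0.13 on the log2 scale (SE 0.35, 95% interval -0.60 to 0.86, adjusted p = 0.9999). To ask whether both parental alleles were alike, each gene was tested from either side for a parental log2 fold change smaller in size than 1, and by this equivalence test 35.6% of all genes were called. Fuca2 was called equivalent (adjusted p = 0.0501), but not without forward embryo 1, 2 or 3 (adjusted p = 0.115, 0.169 and 0.139) nor without the strain term (0.103).

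Ltv1 (ENSMUSG00000019814.5, chr10:13178140-13193168, minus strand), the member nearest to Plagl1, was read from both alleles in every embryo. The forward embryos 1, 2 and 3 had 94, 72 and 151 maternal and 84, 100 and 73 paternal reads. The reverse embryos 1, 2, 3, 5 and 7 had 28, 115, 122, 78 and 73 maternal and 34, 91, 229, 111 and 82 paternal reads. The majority changed between embryos of 1 cross, and the B6 share was 54.0% ± 12.8 (SD, n = 3) and 55.2% ± 7.75 (SD, n = 5), near that of the median gene (two-sided exact permutation test, p = 0.821). The parental contrast was 0.055 (SE 0.37, 95% interval -0.72 to 0.83, adjusted p = 0.9999) and the strain contrast -0.036 (adjusted p = 0.973). Ltv1 was called equivalent (adjusted p = 0.0463), a call lost without forward embryo 1, 2 or 3 (adjusted p = 0.103, 0.135 and 0.196).

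Pex3 (ENSMUSG00000019809.16, chr10:13523842-13553142, minus strand) was read from both alleles in every embryo. The forward embryos 1, 2 and 3 had 94, 85 and 76 maternal and 81, 75 and 63 paternal reads. The reverse embryos 1, 2, 3, 5 and 7 had 51, 109, 86, 90 and 64 maternal and 101, 80, 134, 97 and 117 paternal reads. Forward shares were tight, 53.8% ± 0.783 B6 (SD, n = 3), whereas reverse shares ranged from 42.3% to 66.4% around 57.2% ± 10.1 (SD, n = 5), and the crosses overlapped (two-sided exact permutation test, p = 0.643). The parental contrast was 0.098 (SE 0.26, 95% interval -0.43 to 0.63), and Pex3 was called equivalent (adjusted p = 0.0192), a call kept in all 14 alternatives run. Its exons overlap those of Adat2 on the opposite strand, and since the strand of the counting is not given in the sources used here, reads of the overlap cannot be told apart.

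**Figure D3:**
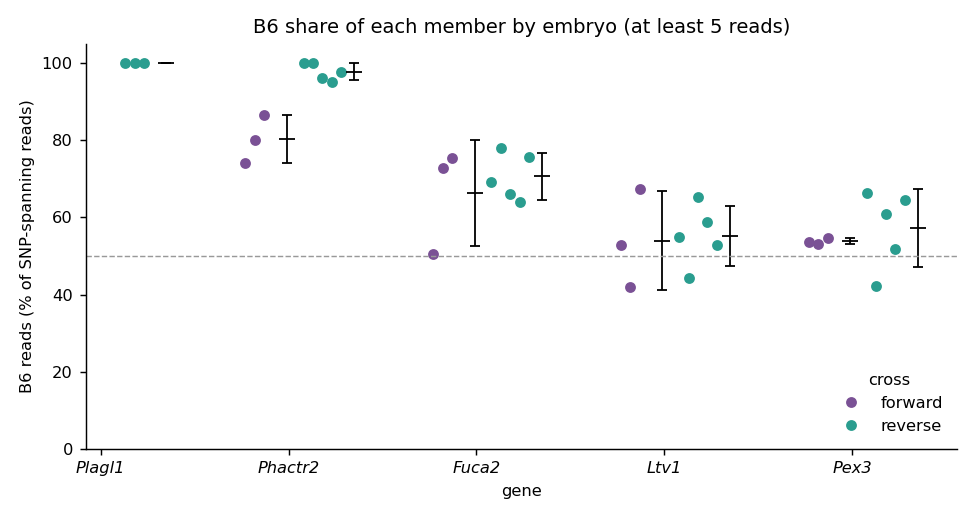
B6 reads as percent of the SNP-spanning reads of each gene (vertical axis) for every embryo with at least 5 reads, forward embryos in purple and reverse embryos in green, with mean and SD in black; the dashed line marks equal reads. Phactr2 is the gene whose crosses do not overlap, at 74.2% to 86.7% and 95.1% to 100%; no forward embryo had 5 Plagl1 reads.

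The total level of each gene, both alleles summed and in CPM after TMM scaling, was compared between the crosses to see whether the allelic differences came with a difference in amount. By edgeR's quasi-likelihood test on 8 embryos, in which 0.0688% of 13078 genes were called, 0 of the 5 were called and 0 had an unadjusted p under 0.05. DESeq2 called 0 of the 5, and 136 over all genes. Plagl1 stood at 0, 1.78 and 0 CPM in forward embryos 1, 2 and 3, and at 0, 8.84, 18.4, 8.33 and 0 in reverse embryos 1, 2, 3, 5 and 7 (adjusted p = 0.680). Phactr2 stood at 37.8, 44.6 and 36.9 in the forward and at 142, 79.6, 21.8, 78.0 and 43.6 in the reverse embryos, a log2 difference of 0.88, reverse over forward (95% interval -0.17 to 1.94, adjusted p = 0.715). The highest Phactr2 level was in reverse embryo 1, the embryo with the fewest trophectoderm marker reads, and without it the log2 difference was 0.50. Fuca2 ranged from 43.4 to 75.8 and from 23.4 to 81.2, Ltv1 from 109 to 184 and from 37.2 to 294, and Pex3 from 107 to 143 and from 91.2 to 184 in the forward and reverse embryos, so that the crosses overlapped in each.

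Within 1 Mb of Plagl1, RefSeq lists 26 genes, of which 15 had a row in the counts and 11, the 5 members included, were tested. In the parental contrast 0 of the 11 were called by edgeR, 4 had an unadjusted p under 0.05 (Plagl1, Phactr2, Aig1 and Hivep2) and DESeq2 called 2, Phactr2 and Hivep2. Over all genes, 1.42% had a parental call by edgeR and 7.32% an unadjusted parental p under 0.05. DESeq2 made 255 parental calls among the 12565 genes. In the strain contrast 1 was called, Phactr2, against 15.5% of all genes, and 6 were called equivalent, against 35.6%. The 6 were Fuca2, Ltv1 and Pex3 and, outside the members, Sf3b5 (a splicing factor subunit, adjusted p = 0.0170), Adat2 (a tRNA deaminase subunit, 0.0415) and Utrn (utrophin, 0.0870). B230208H11Rik, a noncoding RNA gene, was not called in any of the 3 tests, with a parental contrast of -0.78 (95% interval -2.57 to 1.01).

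The genes farthest from Plagl1 in this window on the Pex3 side had more maternal reads, without passing edgeR's test. Hivep2, a zinc finger transcription factor, had 13, 5 and 1 maternal reads against 7, 0 and 0 paternal reads in forward embryos 1, 2 and 3. In reverse embryos 1, 2, 3, 5 and 7 it had 78, 36, 14, 22 and 2 maternal and 2, 0, 3, 5 and 0 paternal reads. The maternal reads were thus more numerous in 8 of 8 embryos, with a parental contrast of -2.61 on the log2 scale (95% interval -4.37 to -0.85, adjusted p = 0.233 with edgeR, and 0.0756 with DESeq2). Aig1, a lipid hydrolase, had 48 maternal and 11 paternal reads (adjusted p = 0.618), and 14 of its 16 forward reads were maternal reads of forward embryo 1, which had the most leukocyte marker reads. The part of those marker reads in either gene was not tested.

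**Figure D4:**
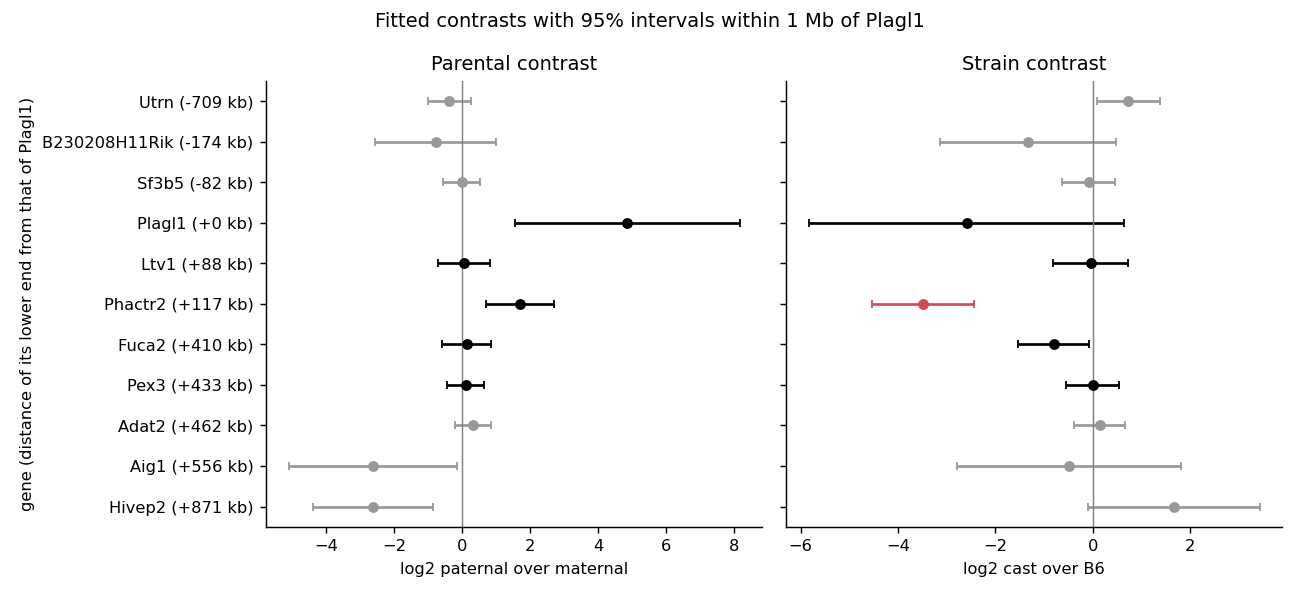
Fitted log2 fold changes with 95% intervals (horizontal axes) of the 11 genes tested within 1 Mb, ordered by the distance in kb of their lower end from that of Plagl1; members are black, other genes grey, and a call at an adjusted p of at most 0.1 is red. The strain contrast of Phactr2, at -3.49, is the single call.

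The relatives of Plagl1 and genes of its network were read beside it. Of the PLAG family, Plag1 had 42 maternal and 20 paternal reads and Plagl2 had 44 and 58, and 0 of the 3 members tested were called in either contrast by edgeR (1, Plagl1, had an unadjusted parental p under 0.05, and DESeq2 called 0 in the parental contrast). Of 16 genes of an imprinted gene network described around Plagl1, 9 were tested. Of these, 3 were called paternal and 2 maternal, against 1.11% and 0.318% of all genes. The median parental contrast of the 9 was 1.34 against -0.0075 over all genes. The paternal calls were Slc38a4, an amino acid transporter (8.48, adjusted p = 1.44e-11), Peg3, a zinc finger protein (6.05, adjusted p = 5.46e-06), and Igf2r, the receptor that removes IGF2 (2.02, adjusted p = 0.0462). Igf2r is known as a maternally expressed gene in later tissues, and the antisense RNA Airn, with 687 paternal and 45 maternal reads, runs through it, so that reads of the overlap cannot be told apart and the Igf2r call is uncertain. The maternal calls were the noncoding RNAs Meg3 (-5.14, adjusted p = 0.00160) and H19 (-7.62, adjusted p = 0.00359), and H19, with 145 maternal reads in forward embryos and 0 reads in reverse embryos, was also called toward B6. Both H19 calls rest on the same maternal B6 reads, so parent and strain cannot be told apart for it. The forward embryos, which held all H19 reads, also had the higher leukocyte and oviduct and uterine marker levels given above, whose part in either H19 call was not tested. Grb10 (188 maternal and 262 paternal reads), Gnas (79 and 164), Igf2 (12 and 31) and Sgce (1 and 13) were not called.

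Plagl1 also belongs to the paternally expressed genes with a maternally methylated germline region. Of the 14 others listed, 12 were in the counts, 8 were tested and 7 were called paternal, as were 1.11% of all genes. The median parental contrast of the 8 was 4.89. The calls were Airn, Fkbp6, Kcnq1ot1, Mcts2, Peg3, Snrpn and Snurf, from 4.13 for Airn to 7.39 for Snurf, and Sgce was not called (adjusted p = 0.9999). Snurf and Mcts2 had 0 maternal reads, so their values depend on the count that edgeR adds and are no bound. The paper names Snurf and Snrpn together at a shared germline region, so their calls are not of separate loci. Kcnq1ot1 had 1422 paternal and 36 maternal reads and Fkbp6 had 1193 and 57, against 49 and 0 in Plagl1. Fkbp6 was called toward B6 as well.

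The families and pathways of the other members held 0 parental calls by edgeR, with 3 genes at an unadjusted p under 0.05, 2 of the PHACTR family and 1 of lysosomal glycan breakdown, and DESeq2 called 1, Phactr2. Of the PHACTR family, 3 were tested and 2 were called toward B6, Phactr2 and Phactr1, the latter with -3.20 (adjusted p = 0.0242) on 11 maternal and 42 paternal reads. Phactr4, with 210 and 366 reads, had a strain contrast of -0.0095. Of 8 tested genes of lysosomal glycan breakdown, Fuca2 among them, 3 were called toward B6, among them the fucosidase Fuca1 (-1.22, adjusted p = 0.0929) and the mannosidase Manba (-1.36, adjusted p = 0.0817), and 5 were called equivalent between parents. The median strain contrast of this list was -0.69, against -0.063 over all genes. Of the 9 small subunit maturation factors, 1 was called toward B6 (Rps20, a ribosomal protein, -3.53), 1 toward cast (Pno1, 0.93, adjusted p = 0.0634), as were 4.45% of all genes, and 7 as equivalent. Of the 15 peroxins, Pex26 was called toward B6 (-1.71, adjusted p = 0.000503) and 5, Pex3 among them, were equivalent. Over all genes, 11.0% were called toward B6, 35.6% were called equivalent and 7.32% had an unadjusted parental p under 0.05. Parental calls with DESeq2 numbered 255 among the 12565 genes. The counts of these short lists are descriptions only, and those of the peroxins did not exceed the shares of all genes.

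The genes whose levels followed Plagl1 most closely over the 16 allele libraries were found by Pearson's r of log2(CPM + 1) among 9330 genes with at least 100 reads. They were Gprc5a (r = 0.808), Gpx2 (0.802), Gm28114 (0.741), Trh (0.727) and Tmem248 (0.689), on chromosomes 6, 12, 15, 6 and 5. The maternal and paternal libraries of 1 embryo share its RNA, and Plagl1 was above 0 in 4 of the 16, so that these values rest on few libraries. Its neighbours were less alike, with r = 0.386 for Phactr2, 0.345 for Ltv1, 0.307 for Fuca2 and 0.142 for Pex3. Gpx2, a glutathione peroxidase, was the 1 gene of the 5 that was called paternal (4.88, adjusted p = 0.0214), with 167 paternal and 3 maternal reads. Gpx2 (-2.88, adjusted p = 0.0752), Gprc5a (-0.72, adjusted p = 0.0741), Gm28114 (-5.35, adjusted p = 0.00239) and Trh (-6.09, adjusted p = 0.0758) were called toward B6 in the strain contrast. Over all genes, 1.11% were called paternal and 11.0% toward B6. The 5 genes were picked from these same libraries by likeness to Plagl1, of whose 49 reads 47 were paternal B6 reads. Their paternal and B6 calls thus follow in part from the choice and are a description only.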

How the data were processed

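The authors aligned reads to mm10 with STAR (2.5.2b per the submitters' notes), dropped multiply mapping reads, kept those covering B6 or cast SNPs and deposited, from an intermediate step of Allelome.Pro, counts per gene, embryo and strain without normalization. Samples 4 and 6, removed by the authors for quality, are not analysed here. Whether strand was used is not given in the sources used here.

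B6 reads were taken as maternal in the forward and paternal in the reverse cross. Positions came by symbol from GENCODE M21 (18286 genes), then RefSeq (2999, and 415 by synonym), and 1110 unmatched genes with 0.815% of the reads were left out, as were 645 X-linked genes. Autosomal genes with at least 10 reads in at least 1 of 16 allele libraries were fitted with strain and parent terms in edgeR 4.0.16 (R 4.3.3, TMM, quasi-likelihood test, legacy default). SE is the absolute log2 fold change divided by the root of F. Equivalence used a log2 margin of 1. Totals per embryo were fitted separately. Shares were averaged over embryos with at least 5 reads, with SciPy 1.17.1 for exact permutation tests. Scripts were tested on simulated data. DESeq2 1.42.0, RLE factors, other filters, other terms and leaving out embryos were the alternatives. Both alleles of 1 embryo form a true pair, and their deviations correlated with r = 0.101 to 0.576 over the 8 embryos. The replicate numbers shared by the crosses name embryos only.

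The members and gene lists were chosen with earlier results of these data known. Named genes are the 5 members, the tested genes within 1 Mb, the called genes and up to 4 most read others among the tested genes of each list, and the 5 genes most like Plagl1. List genes with too few reads to test, some of them with more reads than a named gene, are not named. Hymai, Gm27741 and single markers were named outside this rule. The values of 1 called gene of these lists are not reported here.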

Additional observations from a re-analysis of the deposited data

Results flagged for a closer look

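Phactr2 differed between the crosses in the direction of its parental majority. Reads were mainly maternal in all 3 forward and mainly paternal in all 5 reverse embryos, and the test of this difference is the strain contrast, cast over B6, of -3.49 on the log2 scale (edgeR, adjusted p = 3.03e-05). No embryo lay far enough from the others of its group to be singled out by Dixon's criterion in the 9 groups of values examined, where chance alone marks about 1 group in 20. With at most 5 embryos in a group the criterion has little power. It does not bear on the trophectoderm marker level, in which reverse embryo 1 stood apart.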

How the results depend on the processing

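The strain call of Phactr2 kept its direction and its call in all 15 alternatives (-3.75 to -3.09 with 1 embryo left out), and the equivalence call of Pex3 its call in all 14 (adjusted p 0.00304 to 0.0838 with 1 embryo left out). The parental contrast of Phactr2 (1.71) was called with DESeq2 (1.82), with no filter beyond 1 read (1.72) and with the replicate block of a term for each embryo (1.98), and ran from 1.30 to 1.96 with 1 embryo left out. Plagl1 was called paternal with no filter (4.86) and toward B6 with no parent term (-3.68). With no parent term the strain contrast also holds any parental difference, and 47 of the 49 Plagl1 reads were paternal B6 reads. Parent and strain cannot be told apart in that call. With 1 embryo left out the parental contrast of Plagl1 ran from 4.18 to 5.27 and its strain contrast from -3.98 to -2.01. The strain contrast of Fuca2 was called with 1 library size per embryo (-1.13), which leaves the general excess of B6 reads in, and with the block (-0.81). It ran from -1.07 to -0.64 with 1 embryo left out. Its equivalence was lost with no strain term (adjusted p = 0.103) and ran from 0.0235 to 0.169, and that of Ltv1 from 0.00773 to 0.196, with 1 embryo left out. The cause was not tested.

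Uncalled values near 0 changed sign. With 1 embryo left out, the parental contrast ran from -0.14 to 0.31 for Fuca2 and from -0.14 to 0.30 for Ltv1, the strain contrast from -0.23 to 0.21 for Ltv1 and from -0.074 to 0.070 for Pex3, the total level of Ltv1 from -0.37 to 0.26, and the difference in B6 share from -3.57 to 8.89 percentage points for Fuca2 and from -4.93 to 7.84 for Ltv1. The strain contrast of Ltv1 was 0.050 with the block, and that of Pex3 was 0.0017 with DESeq2, 0.00047 with RLE factors and 0.0087 with the block. The total level of Ltv1 was -0.35 with a block for the replicate number.

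Over all genes, parental calls (179) became 255 with DESeq2, 406 with no filter, 75 with at least 10 reads in every embryo and 389 with the replicate block. They ran from 120 to 195 with 1 embryo left out. Strain calls (1945) became 1068 with at least 10 reads in every embryo, 3207 with the block and 1206 to 2453 with 1 embryo left out. Equivalence calls (4478) ran from 1608 to 5657 with 1 embryo left out. Calls on total level (9) became 143 with no filter, 136 with DESeq2, 21 with a block for the replicate number and 3 to 160 with 1 embryo left out. The shared numbers did not pair the crosses (r = 0.195, 0.0224 and 0.159 for numbers 1, 2 and 3). The block changed no other call of the 5 genes. Plagl1 had 49 reads in all, too few to limit its maternal share in the forward cross.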
